A study of Homo sapiens and Mus musculus with 74 samples.

Results

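The genes described here encode scaffold proteins of the synapse, 9 in all among the 22484 mouse genes with a coding sequence in the count table. They were chosen by name, as long proteins that organize each side of the synapse. The presynaptic set holds Bsn, Pclo, Rims1, Rims2 and Unc13a, and the postsynaptic set holds Shank1, Shank2, Shank3 and Dlg4. All 9 were found, and the values are those of the gene's longest coding model.

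RPL41 is the smallest protein of the eukaryotic ribosome and lies at a bridge between the ribosomal subunits. The study deleted its whole coding sequence by CRISPR-Cas9 in C57BL/6J zygotes, and the homozygous mice are called Rpl41 KO here, against wild-type (WT) mice. The deletion is constitutive, so every cell type of an organ lacked the gene. Brain and kidney of 10-week-old males were profiled by RNA-seq of polyadenylated RNA and by Ribo-seq, which sequences the mRNA fragments (footprints) that ribosomes protect. Each tissue, genotype and assay had 3 libraries, 24 in all, and kidney also had 6 disome-seq libraries, which sequence fragments protected by a pair of collided ribosomes.

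At a chemical synapse, vesicles dock and fuse at the active zone of the presynaptic ending, and receptors on the facing membrane are held in the postsynaptic density. Bassoon and Piccolo span the active zone, RIM proteins tether vesicles and calcium channels, and Munc13 proteins prime vesicles for fusion. On the other side PSD-95 binds receptors and adhesion proteins, and SHANK proteins form a deeper layer that joins these complexes to the cytoskeleton. Such proteins are long, and their mRNAs keep a ribosome at work for longer than most mRNAs do.

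Bsn (ENSMUSG00000032589, chr9:108096022-108190384 of GRCm38, minus strand) encodes Bassoon, of 3942 amino acids. Pclo (ENSMUSG00000061601, chr5:14514918-14863459, plus strand) encodes Piccolo, of 5068 amino acids, and 22 genes in the table have a longer protein. Rims1 (chr1:22286251-22805994, minus strand) and Rims2 (chr15:39198261-39684372, plus strand) encode the vesicle tethers RIM1 and RIM2, of 1424 and 1572 amino acids. Unc13a (chr8:71624417-71671757, minus strand) encodes the priming factor Munc13-1, of 1731 amino acids. Shank1 (chr7:44310253-44360572, plus strand), Shank2 (chr7:144001928-144424494, plus strand) and Shank3 (chr15:89499623-89560261, plus strand) encode proteins of 2167, 1841 and 1805 amino acids. Dlg4 (chr11:70016942-70047522, plus strand) encodes PSD-95, of 767 amino acids, the shortest of the set. Of the 9 genes, 8 were among the 5% longest proteins of the table (at least 1384 amino acids), and Dlg4 was not. The median over all genes was 381 amino acids.

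The coding sequences differed in composition. GC content was 48.1% in Pclo, 49.1% in Rims2 and 51.5% in Rims1, near or below the median of 51.7% over all genes. It was 56.8% in Dlg4, 57.2% in Unc13a, 58.9% in Shank2, 62.3% in Bsn, 63.6% in Shank1 and 64.6% in Shank3. Proline codons (CCN) made up 14.0% of Shank1, 12.5% of Shank3, 12.5% of Bsn, 10.6% of Pclo and 10.5% of Shank2, against a median of 5.24% over all genes.

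Consecutive prolines are known to be translated slowly, and since the study concerns elongation, the longest uninterrupted run of CCN codons is shown for the genes with 4 or more in a row. The sequences are from the transcripts of GENCODE M21 on GRCm38, 5′ to 3′ on the coding strand, with the run in capitals and 6 bases on each side in lower case.
Pclo: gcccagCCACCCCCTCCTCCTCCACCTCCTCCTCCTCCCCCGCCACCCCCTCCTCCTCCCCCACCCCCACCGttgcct
Shank1: ccgggaCCACCACCACCACCCctgcca
Shank2: cctgcaCCCCCGCCCCCGCCGggcagc
Shank3: accgccCCGCCACCCCCACCCgcgccc
Rims2: gtgaggCCGCCCCCACCAaggcct
The Pclo run has 22 codons, lies in exon 5 (chr5:14678132-14678197) and was the longest of the 21950 genes searched. The runs of Shank1 (exon 24, chr7:44354412-44354426), Shank2 (exon 22, chr7:144411633-144411647) and Shank3 (exon 21, chr15:89547736-89547750) have 5 codons each, a length that 2.86% of genes reach. The run of Rims2 (exon 4, chr15:39437775-39437786) has 4 codons, reached by 6.27% of genes. Bsn, Rims1 and Unc13a have 3 in a row at most, and Dlg4 has 2.

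The deletion was visible in every library. Rpl41 had 8981 to 12199 RNA counts in WT brain and 6 to 12 in KO brain, and 37 to 76 footprints in WT brain against 0 to 4 in KO brain. In kidney it had 3695 to 7502 RNA counts in WT and 3 to 8 in KO. Levels are given as CPM, the count of a gene per 1000000 counts of its library, scaled within tissue and assay. Neuron markers were detected in all brain libraries (none of 8 at 0) and summed to 652 to 778 CPM of WT footprints and 729.5 to 770.0 in KO. Kidney tubule and podocyte markers summed to 3803 to 4478 CPM in WT kidney footprints and 2.14 to 11.3 CPM over all brain footprint libraries.

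In WT brain, Dlg4 was the most densely read of the 9 genes at both levels. Per kilobase of transcript its RNA stood at 40.5 ± 2.84 CPM (SD, n = 3), followed by Shank1 at 13.4 ± 1.51, Rims1 at 7.18 ± 0.35, Shank3 at 5.89 ± 0.83, Unc13a at 4.96 ± 0.94, Bsn at 4.48 ± 0.55, Shank2 at 3.60 ± 0.33, Rims2 at 1.81 ± 0.48 and Pclo at 1.64 ± 0.22. Shank3 and Unc13a, Unc13a and Bsn, Bsn and Shank2, and Rims2 and Pclo are neighbors in this order whose libraries overlapped. Per kilobase of coding sequence the footprints of Dlg4 stood at 27.3 ± 2.78 CPM, followed by Unc13a at 11.6 ± 3.33, Bsn at 10.4 ± 1.29, Pclo at 9.63 ± 1.41, Rims1 at 5.39 ± 0.48, Shank1 at 5.09 ± 0.88, Shank2 at 3.46 ± 0.62, Rims2 at 3.39 ± 0.63 and Shank3 at 3.35 ± 0.63. Unc13a, Bsn and Pclo could not be ordered within their spread, nor could Rims1 and Shank1, nor Shank2, Rims2 and Shank3. The order thus changed between RNA and footprints. The ratio of footprint density to RNA density in WT brain was 5.86 for Pclo, 2.33 for Unc13a, 2.31 for Bsn and 1.88 for Rims2. It was below 1 for Rims1 (0.75) and for the postsynaptic genes, at 0.96 in Shank2, 0.67 in Dlg4, 0.57 in Shank3 and 0.38 in Shank1. RNA density depends on the gene model and its untranslated ends, described next, so RNA densities and these ratios are not comparable between genes. For Unc13a in WT replicate 1, a model with a longer untranslated end had 7047 RNA counts against 2517. Both models had 1683 footprints there.

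RNA reads were not spread evenly along these transcripts. Bsn has a second, shorter gene model that covers 47.0% of the bases of the long one at its 3′ end. In brain RNA-seq its counts amounted to 93.5% to 98.3% of those of the long model, while in brain footprints they amounted to 21.6% to 25.8%. Shank1 has a model without the untranslated ends that covers 65.9% of the bases. Its RNA counts were 24.1%, 26.6% and 42.0% of the long model's in the WT brain libraries and 37.3%, 20.7% and 19.4% in the KO libraries, whereas its footprints were 94.8% to 98.9%. The RNA reads of both genes were thus gathered towards the 3′ end. WT replicate 3 and KO replicate 1 held more reads within the coding part than the other brain RNA-seq libraries. For Unc13a the transcript shown here is the shorter of a pair, with 55.1% of the bases of a model that has a longer untranslated end. Its RNA counts as a share of that model's were highest in the same libraries, at 46.8% in WT replicate 3 and 41.6% in KO replicate 1, against 30.7% to 36.8% in the rest. The transcript shown for Rims2 has no annotated untranslated bases, so its RNA value leaves out reads beyond the coding sequence.

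**Figure D1:**
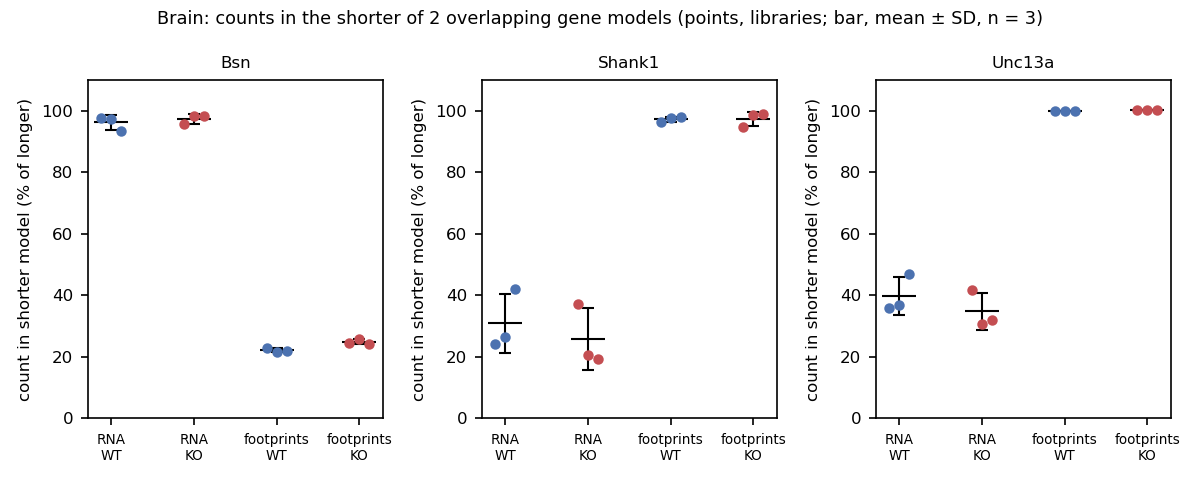
Counts of the shorter of a pair of overlapping gene models, as a percent of the longer, for Bsn, Shank1 and Unc13a in the brain libraries (points are libraries, bars are the mean and SD of 3). The RNA-seq points of Shank1 and Unc13a lie far below their footprint points, and for Bsn they lie far above.

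All 9 genes were higher in WT brain than in WT kidney, which serves as the background. By edgeR's quasi-likelihood test, with p-values adjusted over all transcripts and a threshold of 0.05, 9 of 9 were called higher in brain in RNA, where 35.7% of all transcripts tested were called higher, and 9 of 9 in footprints, where 35.8% were. Because the genes were chosen as synaptic genes, this outcome was foreseen, and the calls only describe the 2 tissues. With at least 10 counts in every library, 5 members could be tested in RNA and 6 in footprints. The narrowest gaps were those of Shank2 and Shank3. Shank2 had 29.0 to 34.8 CPM of RNA in WT brain and 9.16 to 10.1 in WT kidney, a log2 difference of 1.46 ± 0.15 (SE), and in footprints the difference was 0.88 ± 0.18. Shank3 had 36.9 to 49.1 CPM of RNA in WT brain and 8.06 to 11.0 in WT kidney, a log2 difference of 1.95 ± 0.20, and in footprints it was 0.96 ± 0.15. The log2 differences in footprints of the others were 3.50 ± 0.21 for Rims2, 4.90 ± 0.20 for Shank1, 4.97 ± 0.18 for Pclo and 5.98 ± 0.21 for Dlg4. They were 6.72 ± 0.30 for Unc13a, 6.99 ± 0.20 for Bsn and 7.34 ± 0.24 for Rims1. Rims1 was close to absent from kidney, with 5, 0 and 0 RNA counts and 4, 1 and 2 footprints in the WT libraries. Bsn had 6, 1 and 8 RNA counts there. Kidney therefore gave usable values for Shank2, Shank3 and Pclo, and few reads for the rest.

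**Figure D2:**
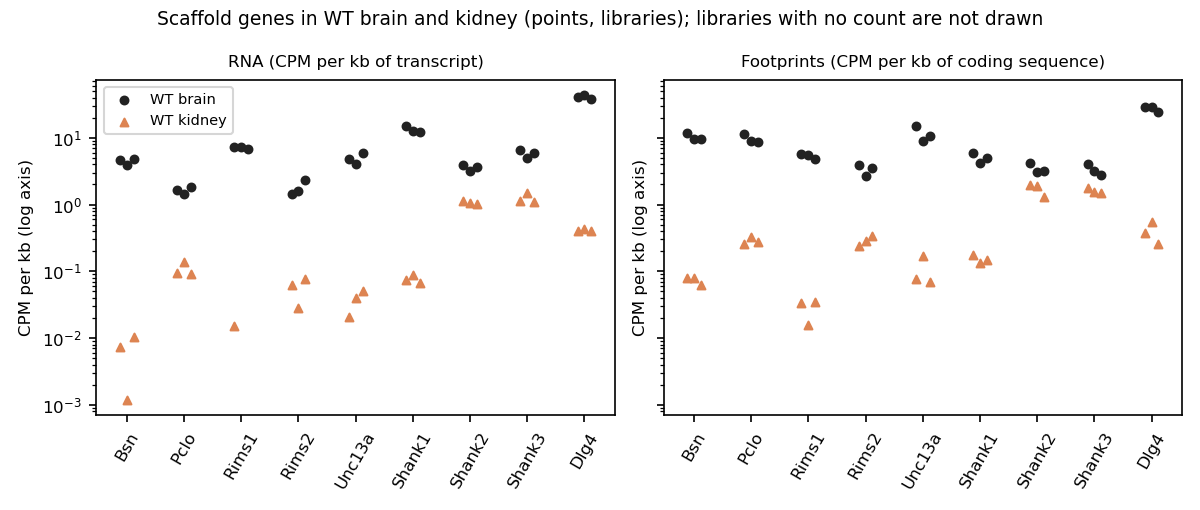
Density of RNA reads (left, CPM per kb of transcript) and footprints (right, CPM per kb of coding sequence) of the 9 genes in WT brain (circles) and WT kidney (triangles), on log axes with 1 point per library and libraries without a count left out. Brain points lie above kidney points for every gene, and the distance is smallest for Shank2 and Shank3.

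The question the genotype comparison addresses is whether loss of Rpl41 alters the RNA, the footprints or the footprints relative to RNA (translation efficiency, TE) of these genes in brain. None of the 9 was called at an adjusted p under 0.05 in any of the 3 measures by edgeR, and none by DESeq2. Over all transcripts tested, edgeR called 0.0134% in RNA, 0.0345% in footprints and 0% in TE, so this setting made few calls anywhere in brain. DESeq2 called 23 transcripts in brain RNA, 388 in brain footprints and 18 in brain TE. The study, with RiboDiff, reported significant TE changes in a substantial number of transcripts of both tissues, so the 0% here departs from its result. By edgeR at an unadjusted p under 0.05 the count of members was 1 in RNA (Unc13a, lower), 2 in footprints (Shank1 and Shank3, both lower) and 2 in TE (Unc13a higher and Shank3 lower), against 3.46%, 12.6% and 4.85% of all transcripts. In RNA the median of all genes was 0.10 with the scaling used and 0.02 on library totals alone, and on library totals the small positive RNA estimates of Bsn, Shank1 and Shank3 fell just below 0. In TE the median was -0.11 over all genes and 0.19 over the 1094 tested genes among the 5% longest proteins. A bulk library cannot tell fewer cells of a type from less RNA per cell.

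In brain footprints the presynaptic and postsynaptic genes lay on different sides of 0. All 5 presynaptic genes had a fitted log2 fold change above 0 (median 0.10), and all 4 postsynaptic genes had one below 0 (median -0.27), with a median of -0.02 over all genes tested. The median of the 1018 tested genes among the 5% longest proteins was 0.11. The counts of Bsn and Rims2 on the positive side rested on values near 0, and the fitted sign of each turned when single libraries were left out, as did that of Shank2 without WT replicate 1. Over all such fits the presynaptic median ranged from 0.03 (without WT replicate 3) to 0.19 (without KO replicate 1) and the postsynaptic median from -0.32 (without WT replicate 3) to -0.18 (without WT replicate 1). The difference between the sides was not tested, since the sets were chosen by name with results known.

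**Figure D3:**
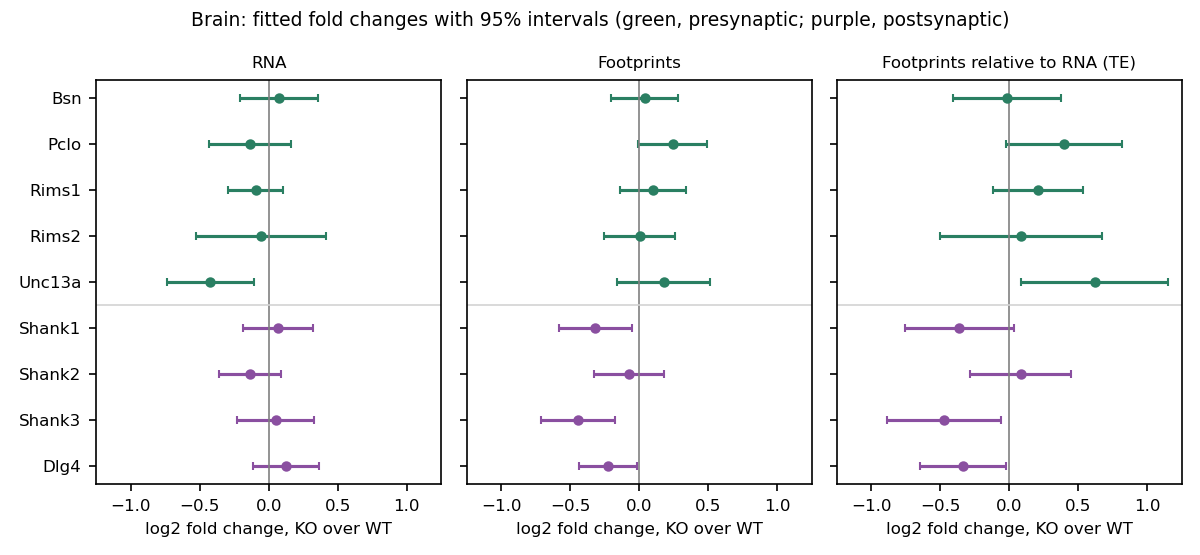
Log2 fold change of KO over WT in brain with its 95% interval, for RNA, footprints and TE, with presynaptic genes above the line (green) and postsynaptic genes below it (purple). In footprints the estimates run from 0.24 for Pclo to -0.44 for Shank3, and none passed the adjusted threshold.

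Among the presynaptic genes, Pclo had 171, 136 and 132 footprint CPM in the WT brain libraries and 152, 185 and 184 in the KO libraries. The groups overlapped, because WT replicate 1 exceeded KO replicate 1. The log2 fold change was 0.24 ± 0.13 (95% interval -0.01 to 0.49, edgeR adjusted p = 0.45), and it was 0.37 without WT replicate 1. Its RNA was 33.1, 28.6 and 37.4 CPM in WT and 35.1, 25.6 and 29.5 in KO, a log2 fold change of -0.13 ± 0.15. Its TE estimate was 0.39 ± 0.21 (adjusted p = 0.88).

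Unc13a, the priming factor, had 79.3, 46.1 and 54.6 footprint CPM in WT and 60.0, 77.0 and 67.7 in KO, a log2 fold change of 0.18 ± 0.17 (95% interval -0.16 to 0.51, edgeR adjusted p = 0.70). WT replicate 1 was the highest of the 6 libraries, and without it the value was 0.43, while without WT replicate 2 it was 0.03. The RNA of Unc13a was 27.7, 22.9 and 33.5 CPM in WT and 23.0, 18.2 and 21.5 in KO, the lowest RNA estimate of the set at -0.42 ± 0.16 (95% interval -0.74 to -0.11, adjusted p = 0.90). The groups overlapped by KO replicate 1, which exceeded WT replicate 2. All 5 coding models of the gene had an RNA estimate below 0, from -0.72 to -0.22, but overlapping models share reads. They are thus not independent readings, and 1 of them encodes only 16 amino acids. The value of -0.22 belongs to the model with the longer untranslated end. The TE estimate of Unc13a was the highest of the set, at 0.62 ± 0.27 (adjusted p = 0.88). Leaving out the 2 RNA-seq libraries with the most reads in the coding part, an alternative chosen after the data were seen, gave an RNA value of -0.36 with an adjusted p of 0.038 in a fit of 2 against 2 that called 9287 transcripts in all, against 12 with all libraries.

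Bsn, the second giant of the active zone, had 140, 115 and 112 footprint CPM in WT and 109, 135 and 134 in KO, a log2 fold change of 0.04 ± 0.12 (95% interval -0.20 to 0.29). Its RNA estimate was 0.07 ± 0.14 and its TE estimate -0.02 ± 0.20. Rims1 had 24.8, 23.5 and 20.8 footprint CPM in WT and 21.2, 25.9 and 26.7 in KO, a log2 fold change of 0.10 ± 0.12 (95% interval -0.14 to 0.34) that ranged from 0.03 (without WT replicate 3) to 0.19 (without KO replicate 1). For the other RIM gene, Rims2, the footprints were 18.6, 12.8 and 16.7 CPM in WT and 16.8, 16.2 and 15.9 in KO, with a log2 fold change of 0.00 ± 0.13 (95% interval -0.25 to 0.26). Rims1 and Rims2 RNA estimates were -0.09 ± 0.10 and -0.06 ± 0.24, and their TE estimates were 0.21 ± 0.17 and 0.09 ± 0.30. The groups of these 3 genes overlapped in both assays. The RNA of Rims2 was highest in WT replicate 3 (11.1 CPM) and KO replicate 1 (10.8 CPM), the libraries with the most reads in coding parts, and lay between 6.82 and 7.64 CPM in the other 4.

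On the postsynaptic side, Shank3 showed the largest footprint difference of the set. It had 21.9, 17.4 and 15.1 CPM in the WT brain libraries and 13.6, 13.1 and 13.4 in the KO libraries. Every KO library lay below every WT library, which held for 1 of the 9 genes and for 8.55% of all transcripts tested. The log2 fold change was -0.44 ± 0.14 (95% interval -0.71 to -0.18, edgeR adjusted p = 0.25), and without WT replicate 1 it was -0.27. Its RNA was 49.1, 36.9 and 44.1 CPM in WT and 47.6, 39.5 and 47.6 in KO, a log2 fold change of 0.05 ± 0.14. The TE estimate was -0.48 ± 0.21 (adjusted p = 0.88). All 5 coding models of Shank3, which share reads, had a footprint estimate below 0, from -0.54 to -0.38.

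Shank1, its close relative, had 39.0, 27.6 and 32.6 footprint CPM in WT and 30.3, 25.6 and 24.5 in KO, a log2 fold change of -0.32 ± 0.14 (95% interval -0.58 to -0.05, edgeR adjusted p = 0.37). The groups overlapped by KO replicate 1, which exceeded WT replicate 2. Without WT replicate 1 the value was -0.18. Its RNA, at 149, 126 and 121 CPM in WT and 130, 134 and 152 in KO, gave 0.07 ± 0.13. Dlg4 had 67.3, 65.9 and 55.6 footprint CPM in WT and 51.9, 53.4 and 56.0 in KO, a log2 fold change of -0.23 ± 0.11 (95% interval -0.44 to -0.01, edgeR adjusted p = 0.41). KO replicate 3 exceeded WT replicate 3, so the groups overlapped. All 18 coding models of Dlg4 had a footprint estimate below 0, from -0.25 to -0.15, and these models share reads. Shank2 had 23.1, 16.8 and 17.5 footprint CPM in WT and 17.7, 18.4 and 18.7 in KO, a log2 fold change of -0.07 ± 0.13 (95% interval -0.33 to 0.18). The Shank2 estimate turned to 0.09 without WT replicate 1. Its RNA estimate was -0.14 ± 0.11 and that of Dlg4 was 0.12 ± 0.12. TE estimates were -0.36 ± 0.20 for Shank1, -0.33 ± 0.16 for Dlg4 (edgeR adjusted p = 0.88 each) and 0.08 ± 0.19 for Shank2.

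WT replicate 1 held the highest footprint CPM of the WT brain libraries for all 9 genes. Centered within the 6 brain Ribo-seq libraries, the presynaptic median stood at 0.18, -0.21 and -0.19 in WT replicates 1, 2 and 3 and at -0.07, 0.13 and 0.12 in the KO replicates. The 1018 genes with the longest proteins had the same arrangement, at 0.09, -0.20 and -0.08 in WT and -0.03, 0.12 and 0.11 in KO. The postsynaptic median was 0.35, 0.03 and -0.05 in WT and -0.11, -0.16 and -0.13 in KO. The medians of the presynaptic genes and of the long proteins thus both had WT replicate 1 above KO replicate 1 and KO replicates 2 and 3 above WT replicates 2 and 3, though single genes such as Rims2 did not. The median of the postsynaptic genes was lower in each KO library than in any WT library, an arrangement that Shank3 alone of the 4 had as a gene. In Shank2 all KO libraries exceeded WT replicates 2 and 3.

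**Figure D4:**
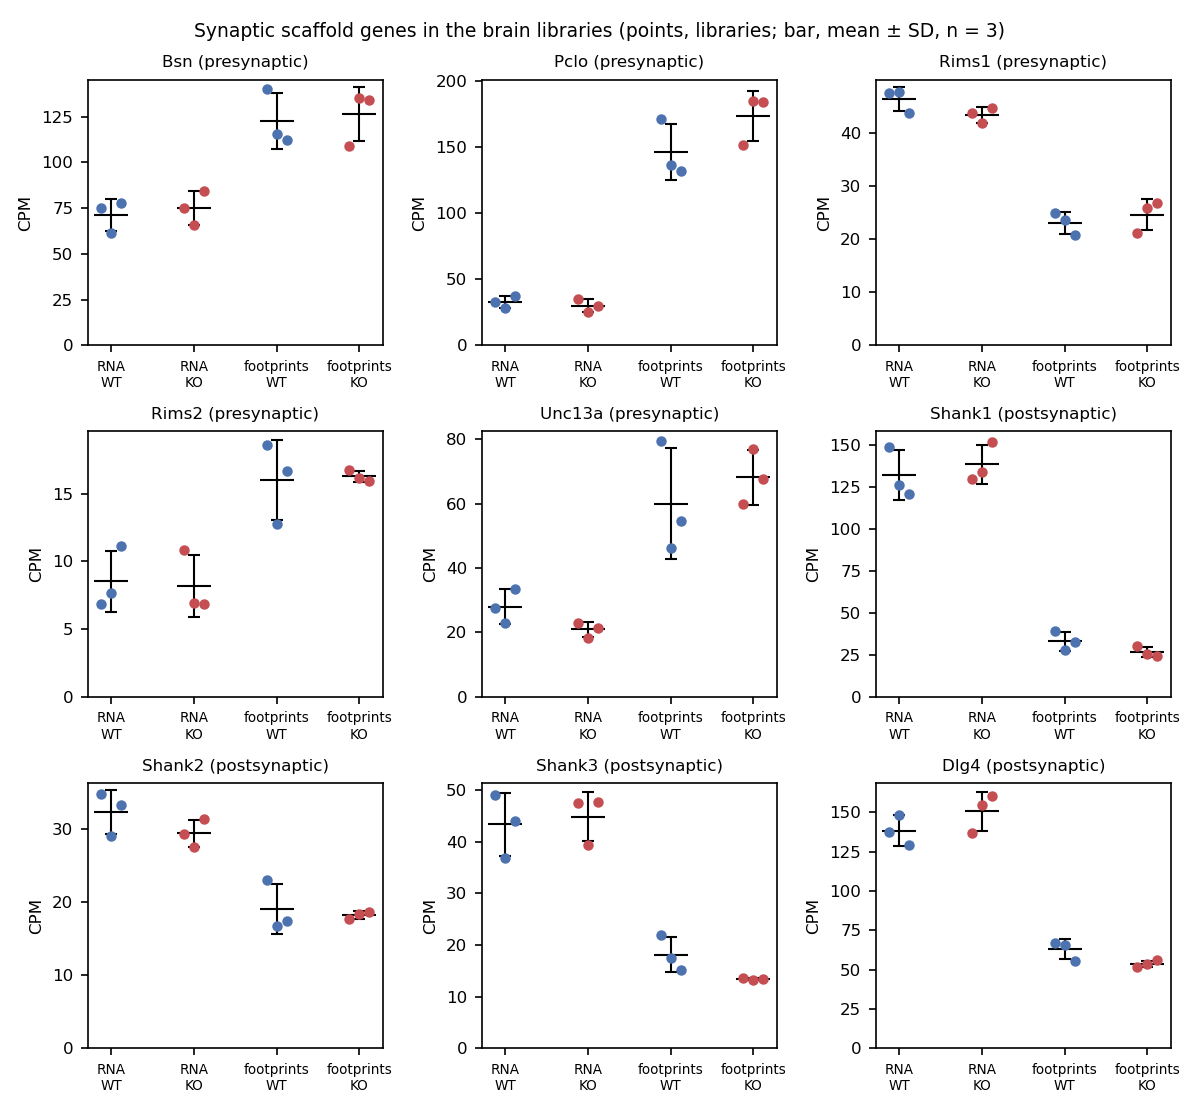
CPM of RNA and footprints of each of the 9 genes in the brain libraries, with linear axes from 0 (points are libraries, bars are the mean and SD of 3). Shank3 is the gene whose WT and KO footprint points do not overlap.

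Coding GC content and protein length moved with the footprint fold changes across genes. With brain genes ordered by GC and split into 5 equal bins, the median footprint log2 fold change ran from 0.06 in the lowest bin to -0.13 in the highest, and with bins by protein length from -0.16 to 0.10. Bsn, Shank1, Shank2 and Shank3 were in the highest GC bin. Within it, Shank3 stood at the 10.6th percentile of the fold changes, Shank1 at the 20.7th, Shank2 at the 58.6th and Bsn at the 77.8th. All but Dlg4 were in the highest length bin, where Shank3 stood at the 5.32nd percentile and Pclo at the 74.0th. The part of GC and length in the differences between the 9 genes was not tested.

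Endothelial markers had estimates below 0 in KO brain, though their sums overlapped between genotypes. All 5 had a footprint estimate below 0 (median log2 fold change -0.82), none was called, none was at 0 in any group, and their summed level was 31.9 to 52.5 CPM in WT and 23.3 to 36.7 in KO. In RNA all 5 were again below 0 (median -0.67), with sums of 23.2 to 37.2 CPM in WT and 14.6 to 23.5 in KO. Median footprint estimates of the other brain marker lists were -0.00042 for neurons, 0.07 for astrocytes, -0.09 for oligodendrocytes and 0.09 for microglia, with none of 26 genes called. In RNA the astrocyte markers summed to 732 to 777 CPM in WT and 867 to 882 in KO, and 6 of 6 estimates lay above 0 (median 0.22, against 0.10 over all genes). Microglia markers summed to 52.1 to 56.3 CPM of RNA in WT and 59.4 to 60.6 in KO (median 0.18), and neither list had a gene called. The part of these cell types in the scaffold values was not tested.

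In kidney, Shank3 rose in footprints. It had 9.47, 8.22 and 8.03 CPM in the WT libraries and 13.3, 15.5 and 13.0 in the KO libraries, with all KO libraries above all WT libraries, as it did for 15.6% of transcripts tested. The log2 fold change was 0.70 ± 0.12 (95% interval 0.47 to 0.93, edgeR adjusted p = 0.0083). It was the only call among the 8 members tested in kidney footprints, where 4.8% of all transcripts were called higher. The median kidney footprint log2 fold change was 0.28 over the 918 tested genes among the 5% longest proteins, against -0.02 over all genes. The part of length in the Shank3 value was not tested. Over all transcripts 3613 were called higher and 2234 lower, and on library totals alone 1555 and 2516. Without KO replicate 2 the value was 0.61 and the call was lost (edgeR adjusted p = 0.060). Of its 5 coding models, which share reads, 4 were called, with estimates from 0.70 to 0.79, and the other, at 0.84, was not (edgeR adjusted p = 0.17). Shank3 RNA in kidney was 8.29, 11.0 and 8.06 CPM in WT and 8.45, 10.0 and 8.03 in KO, a log2 fold change of -0.05 ± 0.19, and its TE estimate was 0.75 ± 0.24 (adjusted p = 0.14). With 1 transcript per gene in the fit, the TE value was 0.86 and was called (edgeR adjusted p = 0.048).

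The other members with usable kidney counts did not pass the test. Shank2 had 10.9, 10.6 and 7.16 footprint CPM in WT kidney and 10.7, 10.1 and 10.3 in KO, a log2 fold change of 0.09 ± 0.14 (95% interval -0.18 to 0.37). Pclo had 3.88, 4.94 and 4.16 in WT and 3.05, 3.53 and 4.09 in KO, a log2 fold change of -0.23 ± 0.16 (95% interval -0.55 to 0.09). Of the members with few kidney reads, every KO library lay below every WT library for Shank1 in footprints (0.868 to 1.16 CPM in WT and 0.197 to 0.789 in KO), an arrangement that 14.1% of transcripts had, and above it for Unc13a in RNA, as 10.2% of transcripts did. The kidney RNA estimates of Shank2 and Pclo were -0.29 ± 0.18 and -0.28 ± 0.30. None of the 7 members tested in kidney RNA was called by edgeR or DESeq2. There edgeR called 0.00992% of transcripts, and DESeq2 called 465 of 70545. None of the 7 had an unadjusted edgeR p under 0.05, as 16.8% of transcripts did. In kidney TE none of 8 was called by edgeR or DESeq2. There edgeR called 0% of transcripts, and DESeq2 called 4441 of 89685. By edgeR 1 of the 8 had an unadjusted p under 0.05 in kidney TE (Shank3), as 19.4% of transcripts did. Endothelial marker sums in kidney footprints were 58.8 to 90.6 CPM in WT and 96.5 to 111 in KO, with 4 of 5 estimates above 0 and 1 called higher, while in kidney RNA 4 of 5 were below 0 and none was called. Those of tubule and podocyte markers were 3803 to 4478 CPM in WT footprints and 5252 to 6096 in KO.

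The genotype response of Shank3 footprints differed between the tissues. The difference of brain from kidney was -1.13 ± 0.19 on the log2 scale (95% interval -1.50 to -0.76, edgeR adjusted p = 0.030), in a fit of both tissues that called 0.0767% of transcripts. It was 1 of 9 members called in footprints. The median difference in that fit was -0.13 over the 1054 tested genes among the 5% longest proteins, against 0.01 over all genes. None of 9 was called in RNA by edgeR or DESeq2, where edgeR called 0.00108% of transcripts and DESeq2 called 74 higher and 31 lower. In RNA 2 members had an unadjusted edgeR p under 0.05 (Rims1 and Unc13a), as 8.47% of transcripts did. For both genes the kidney side of that fit rested on few reads. Rims1 had 5 RNA counts in WT kidney replicate 1 and 0 in every other kidney RNA-seq library. No kidney RNA-seq library exceeded 20 counts for Unc13a. Their p-values therefore cannot decide whether the RNA response differed between tissues. The Shank3 footprint call was lost on library totals alone (-1.09), with at least 10 counts in every library (-1.16) and with counts summed per gene (-1.23), at adjusted p of 0.063 to 0.085. It was also lost without WT brain replicate 1 (-0.96), KO brain replicates 2 or 3 (-1.12 each), WT kidney replicates 1 (-1.27) or 2 (-1.10) and KO kidney replicates 2 (-1.03) or 3 (-1.18), and its sign held in each. The 5 endothelial markers had estimates below 0 in the same fit (median -1.26), and none was called. Their part in the tissue difference of Shank3 was not tested.

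**Figure D5:**
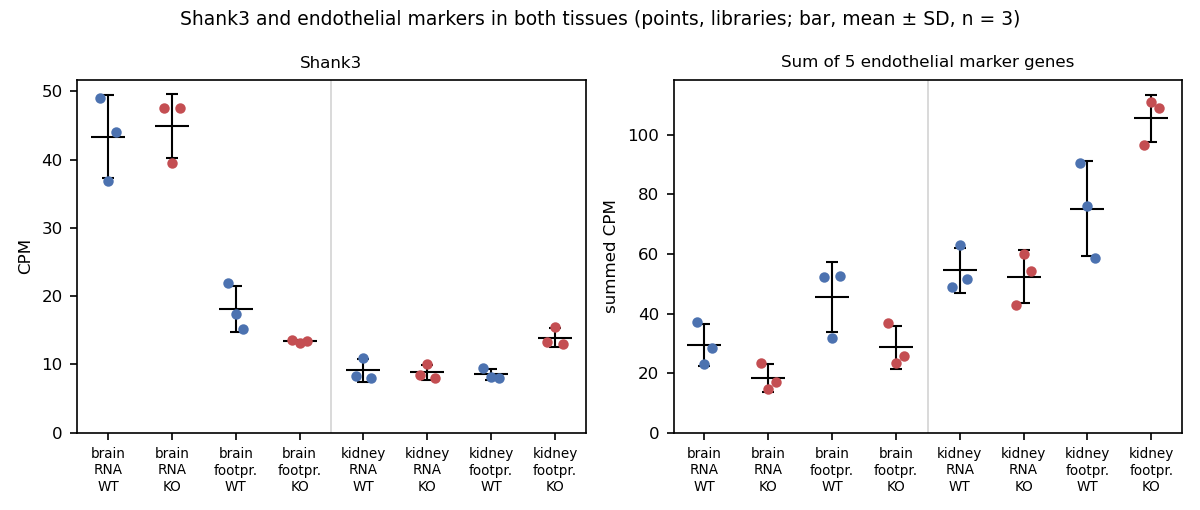
Shank3 (left, CPM) and the summed level of 5 endothelial marker genes (right, CPM) in RNA and footprints of both tissues (points are libraries, bars are the mean and SD of 3). KO footprint points of Shank3 lie below the WT points in brain and above them in kidney, and its RNA points overlap in both tissues.

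The share of Bsn footprints near the end of its coding sequence was compared between genotypes in brain. The short model that covers the last 29.7% of its coding sequence held 22.8%, 21.6% and 21.9% of the gene's footprints in the WT brain libraries and 24.6%, 25.8% and 24.2% in the KO libraries, or 22.1% ± 0.61 against 24.9% ± 0.81 (SD, n = 3). Every KO value lay above every WT value. The same arrangement held for 8.77% of the 228 brain genes that have a comparable model of the end of their coding sequence. The median difference over these genes was 0.57 percentage points, against 2.78 for Bsn, and 139 of the 228 had a difference above 0. With 3 libraries a group the smallest two-sided p of an exact permutation test is 0.1, and since Bsn was singled out after its values were seen, no test is given. The other scaffolds have no such model.

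Genes that work with the scaffolds were read from 4 lists of 56 genes. Of 14 active zone partners (among them the ERC and liprin proteins), none was called in brain RNA, footprints or TE, and the median footprint log2 fold change was 0.06. Unc13c, another priming factor, had 0.20 ± 0.12 and Rims4, a short RIM relative, -0.19 ± 0.13 in footprints. Of 14 genes of synaptic vesicles and fusion, none was called, with a footprint median of -0.05. Vamp2, the vesicle SNARE, had -0.31 ± 0.13 and Doc2a, a calcium sensor, 0.29 ± 0.13. Of 18 postsynaptic density partners none was called, with a footprint median of 0.01. Homer2, which binds SHANK proteins, had 3.63, 5.16 and 4.37 footprint CPM in WT and 3.00, 2.98 and 3.26 in KO, a value of -0.48 ± 0.17. Cnksr2 had 75.4, 69.8 and 2.99 CPM in WT and 71.5, 95.5 and 91.8 in KO, so its estimate of 0.83 ± 0.64 rested on WT replicate 3. Of 10 synaptic adhesion genes none was called, with a footprint median of 0.07. By edgeR at an unadjusted p under 0.05 the count in brain footprints was 7 of these 56 genes, 4 higher and 3 lower, against the 12.6% of transcripts given above, and DESeq2 was not run on them separately. In kidney footprints 2 of the 13 postsynaptic density partners tested were called lower and none higher, where 2.97% of all transcripts were called lower, and none was called in the other 3 lists.

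The 5 genes listed next had the brain profile nearest to the mean of the 9 genes, measured as the root mean square difference of centered log2 CPM over the 12 brain libraries among 12545 other genes. These were Clip2 (0.051), Cdc42bpb (0.053), Cic (0.055), Prrc2b (0.056) and Arhgef11 (0.057), with proteins of 1047 to 2510 amino acids, and the median over all genes was 0.213. Of the 9 genes themselves, Shank2 (0.051) and Bsn (0.092) lay nearest to their mean and Rims2 and Unc13a (both 0.196) farthest.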

How the data were processed

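Rpl41 KO and WT mice were compared within brain and kidney, with 3 libraries per tissue, genotype and assay. The replicates are called biological by the study, but the labels do not say that each came from a separate animal, so p-values measure the spread between these libraries. The authors deposited raw counts per transcript for 142604 mouse transcripts. Per the methods they trimmed reads with cutadapt, aligned them to mm10 with STAR and counted them with featureCounts of Subread (versions not given in the sources used here). Multimapping was allowed, so a read may count for several transcripts, and near-identical or overlapping models share reads. Counts per brain library totaled 84433838 to 123745890 (RNA-seq) and 9498663 to 35881929 (Ribo-seq). Kidney libraries held 44998381 to 55077048 (RNA-seq), 11036643 to 42452425 (Ribo-seq) and 1187636 to 3018963 (disome-seq).

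Of the transcripts, 141374 matched GENCODE M21 by identifier. For each gene the coding model with the most amino acids was used. Counts were fitted with edgeR 4.0.16 (limma 3.58.1, R 4.3.3): filterByExpr, TMM scaling and quasi-likelihood F-tests, with p-values adjusted by Benjamini-Hochberg across every transcript in the fit and called at 0.05. TMM factors were found within each assay over the libraries of a fit, so fits of both tissues scaled brain and kidney together. CPM (counts per 1000000) were taken after TMM scaling within tissue and assay. TE was the interaction of genotype and assay, and the response was that of genotype and tissue. The study tested TE with RiboDiff, which was not run here. Standard errors are the log2 fold change over the root of F, and intervals are 1.96 standard errors on either side. A pseudocount of 0.5 was used for centered log2 CPM. The fits were tested on simulated data. Alternatives were DESeq2 1.42.0, library totals alone, other count filters, counts summed per gene, 1 transcript per gene, a replicate block, and leaving out each library.

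The 9 genes and all gene lists were chosen with earlier results of these data known. The named partner genes are those called in brain or, where none was, the 2 per list with the largest absolute footprint log2 fold change. Single genes of the synaptic adhesion list are not reported here. The human table, whose 28 columns carry mouse names, and 44 HEK293T samples were not used here.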

Additional observations from a re-analysis of the deposited data

Results flagged for a closer look

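The Shank3 footprint response to the deletion differed between tissues, with brain below kidney by -1.13 ± 0.19 on the log2 scale in the test of the difference itself (edgeR adjusted p = 0.030, and 0.0002 to 0.128 over the alternatives). Kidney disome-seq, which enters no comparison above, gave Rims2 counts of 9, 9 and 1 in the WT libraries and 14, 14 and 7 in the KO libraries. The lowest KO library stood at 5.98 CPM and the highest WT library at 2.84 CPM, so all KO libraries lay above all WT libraries, as they did for 7.94% of the 9901 genes with enough counts. The other 8 scaffold genes overlapped. Counts this low carry wide counting error, and no test was run.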

How the results depend on the processing

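Brain footprints and TE of the 9 genes gave no call under any of the alternatives, and the number of transcripts called over all genes ranged from 0 to 9287 in brain RNA, 0 to 1573 in brain footprints, 0 to 1694 in brain TE, 0 to 465 in kidney RNA, 803 to 9936 in kidney footprints, 0 to 4441 in kidney TE, 0 to 105 in the RNA response and 4 to 437 in the footprint response. Without the RNA-seq libraries WT replicate 3 and KO replicate 1 of brain, chosen after the data were seen, 1 member was called in brain RNA. Same-numbered WT and KO libraries did not deviate together throughout, and the main fits did not take the numbers as pairs. Their correlations were -0.42 to 0.45 in brain RNA and -0.19 to 0.05 in brain footprints. In kidney they were -0.23 to 0.38 in RNA and -0.12 to 0.03 in footprints. The highest value of each RNA range belonged to replicate 2. Same-numbered RNA-seq and Ribo-seq libraries of a genotype had mostly positive correlations. These lay between 0.18 and 0.45 for WT brain and between -0.06 and 0.10 for KO brain. For kidney they lay between 0.13 and 0.27. The main TE fit did not use this pairing. A fit that did called 0 transcripts in brain TE and 0 in kidney TE. With a replicate block the calls in brain footprints went from 28 to 80 and in kidney footprints from 5847 to 3997, no member's call changed, and the kidney TE of Pclo turned from 0.02 to -0.0035 (-0.017 with RNA and footprints of a number paired). On library totals alone, the kidney RNA median of the members was -0.10, that of WT brain against kidney RNA was 6.58, 0 members were called in the footprint response, and brain RNA turned to -0.0055 for Bsn, -0.0077 for Shank1 and -0.022 for Shank3, brain footprints of Rims2 to -0.022 and brain TE of Bsn to 0.025. With at least 10 counts in every library, which tests fewer members, the medians were -0.085 in kidney RNA, 0.079 in kidney footprints, 0.41 in kidney TE, 3.74 in tissue RNA with 5 members called, 4.20 in tissue footprints and -0.18 in the footprint response with 0 called. With counts summed per gene they were -0.33, 0.13 in kidney TE, 4.51 and 5.32, with 0 called in the response, and brain RNA turned to -0.092 for Shank1, -0.022 for Shank3 and -0.017 for Dlg4, and brain TE of Bsn to 0.10. With 1 transcript per gene, the kidney RNA median was -0.058, that of tissue RNA 6.55, 1 member was called in kidney TE, and brain RNA turned to -0.018 for Bsn, -0.022 for Shank1 and -0.036 for Shank3, and brain TE of Bsn to 0.090. DESeq2 turned brain footprints of Rims2 to -0.0012, and keeping all transcripts with 1 count turned brain TE of Bsn to 0.00026. The cause was not tested. Leaving out 1 library at a time gave ranges of -0.10 to 0.050 (members) and -0.26 to -0.031 (presynaptic) for the brain RNA median, -0.082 to 0.20 for brain TE, -0.35 to 0.014 for kidney footprints with 0 to 1 called, -0.45 to -0.047 for kidney TE, -0.054 to 0.11 for the RNA response, and -0.048 to 0.33 for the footprint response with 0 to 1 called. Single genes ranged in brain RNA from -0.022 to 0.16 (Bsn), -0.31 to 0.18 (Rims2), -0.0026 to 0.18 (Shank1) and -0.053 to 0.16 (Shank3), in brain footprints from -0.018 to 0.15 (Bsn), -0.11 to 0.12 (Rims2) and -0.15 to 0.090 (Shank2), in brain TE from -0.11 to 0.088 (Bsn) and -0.15 to 0.33 (Rims2), and in kidney from -0.14 to 0.11 (Shank3 RNA), -0.060 to 0.21 (Shank2 footprints) and -0.19 to 0.16 (Pclo TE). The brain Ribo-seq depth, with 156 to 659 counts for Shank2, limits how small a difference could be seen.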

Other observations

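Of the 9 genes, Pclo had the most disome counts in kidney when libraries were summed, with 108, 89 and 20 in the WT libraries and 68, 64 and 40 in the KO libraries. Its ratio of disome CPM to footprint CPM was 6.04 in WT and 9.22 in KO, above that of 98.7% and 99.3% of the 9901 genes with enough counts, whose median ratio was 0.889 and 0.856. The Pclo libraries overlapped in disome CPM. Shank2 had 85, 95 and 14 disome counts in WT and 53, 51 and 31 in KO, and a ratio of 2.37 in WT and 2.48 in KO. Shank3 had 44, 52 and 16 in WT and 39, 32 and 14 in KO, with a ratio of 1.69 in WT and 1.10 in KO. Dlg4 had 10, 16 and 4 counts in WT and 10, 6 and 1 in KO. Its ratio was also high, at 4.21 in WT and 3.35 in KO, above 97.0% and 94.9% of the 9901 genes. Rims2, with the low counts given above, had a ratio of 1.59 in WT and 5.60 in KO, above 80.4% and 98.1%. Bsn had at most 1 disome count in any library, and Rims1 had 0 in all 6. Where the disomes lie along these mRNAs cannot be read from counts per transcript.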
